A study of Mus musculus with 4 samples.

Results

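The nuclear-encoded subunits of the mitochondrial respiratory chain and ATP synthase were followed in bone marrow-derived macrophages cultured together with MC38, a mouse colon carcinoma cell line. The genes were taken by their symbols, as those of the Ndufa, Ndufb, Ndufc, Ndufs and Ndufv series, Sdha to Sdhd, all beginning with Uqcr, Cox4 to Cox8 and Atp5. This gave 83 of the 21878 genes in the count table: 36 of complex I, 4 of complex II, 8 of complex III, 18 of complex IV and 17 of complex V. Each gene was placed in a complex by its symbol alone. Such a placement, as of Ndufa4 in complex I, need not match the complex in which the protein works. Enough reads for a test were found for 79 of them, among 12494 genes tested in all.

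The series holds 4 RNA-seq libraries, 2 labelled anti-Act1 and 2 labelled WT. By the labels all macrophages came from C57BL/6 mice of 8 weeks and were cocultured with MC38 cells for 48 h; the study's own text names the C57BL/6 J background for the anti-Act1 mice and in 1 place gives a shorter coculture for these libraries. Anti-Act1 mice carry an allele that lowers Act1 (gene symbol Traf3ip2, an adaptor of the IL-17 receptor) in macrophages, and WT mice lack it; the promoter that drives the allele is not given in the sources used here. No Apc mutation is named in the labels, while 1 passage of the methods speaks of macrophages from Apc Min/+ mice with and without the allele; the labels were followed. According to the methods the libraries of a condition are biological replicates, but no animal or culture is named for them, so that p-values measure the spread between these libraries only.

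Totals ran from 55435063 to 75062945 counts per library. Traf3ip2, the targeted gene, stood at 6.98 and 7.54 CPM (the count scaled to the library total) with the label WT and at 9.63 and 7.84 CPM with the label anti-Act1, so the knockdown label was not matched by a lower level of its RNA (log2 difference 0.27 ± 0.12 SE, adjusted p = 0.117 by edgeR). The study itself reports clearly reduced Act1 expression in bone marrow-derived macrophages of anti-Act1 mice, a measurement separate from these counts. How the allele lowers Act1 is not given in the sources used here, and in what follows anti-Act1 and WT stand for the libraries so labelled. The 4 Y-linked genes summed to 228 and 246 CPM in the WT libraries and to 0.016 and 0 CPM in the anti-Act1 libraries, so the label cannot be told apart from the presence of Y-linked RNA. Macrophage markers (8 genes, among them Csf1r and Adgre1) summed to between 24573 and 26257 CPM in every library, most of it Lyz2; of the 8, Mertk and Itgam were lower (log2 fold change -0.40 and -0.31) and Cd14 was higher (0.16). The 7 epithelial markers of tumour cells, 3 of them without a count, summed to no more than 0.464 CPM, and the 6 fibroblast markers to no more than 0.476 CPM. Summed neutrophil, T cell, B cell and dendritic cell markers lay between 1.80 and 31.7 CPM, the highest value being that of the T cell list, where Cd4 made up most of it. Within these lists S100a9 (-1.42) and Ngp (-2.21) were lower, S100a8 (0.66) and Cd4 (0.21) were higher, and the calls of Cd14, Ngp and Cd4 did not hold with every library left out. The part of these marker differences in the results was not tested.

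Complexes I to IV pass electrons from NADH and succinate to oxygen, all but complex II pump protons across the inner mitochondrial membrane as they do so, and complex V uses the returning protons to make ATP. Most of their subunits are encoded in the nucleus and imported. The cores of complexes I, III and IV and the membrane part of complex V also contain subunits made inside the mitochondrion from its own genome. In macrophages the chain is known to take part in activation as well as in ATP supply: succinate oxidation by complex II and electron flow through complex I supply reactive oxygen species, and an intact chain is a feature of alternatively activated cells. None of the 13 mitochondrially encoded subunits was analysed here.

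Nuclear subunit genes are classical targets of the factors NRF1, GABP (an ETS factor) and YY1, whose short binding letters were therefore searched for in the promoters. RefSeq promoter windows (build GRCm38.p6, 250 bases before to 50 bases after the start site) were at hand for 66 of the 83 genes. Sdhb, Atp5k and Cox6a1 are printed as examples of the 5 genes whose windows hold both an NRF1 and an ETS match, the other two being Atp5l and Uqcr11. Sdhd and Ndufa7 are printed as the genes called higher in anti-Act1 with a match inside the stretch shown. The stretch shown covers the 170 bases before the start site, 5′ to 3′ on the gene's own strand, and capitals mark every match to GCATGCGC (NRF1), CCGGAAG (ETS), AAGATGGC (YY1) or CACGTG (E-box) on either strand.
Sdhb, chr4:140961101-140961270, plus strand: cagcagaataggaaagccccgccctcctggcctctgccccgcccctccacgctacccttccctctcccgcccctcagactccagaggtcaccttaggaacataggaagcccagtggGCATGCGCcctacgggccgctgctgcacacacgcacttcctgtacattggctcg
Atp5k, chr5:108434400-108434569, minus strand: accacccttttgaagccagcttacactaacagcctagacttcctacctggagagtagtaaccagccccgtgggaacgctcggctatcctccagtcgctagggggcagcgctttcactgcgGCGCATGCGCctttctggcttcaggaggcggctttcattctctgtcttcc
Cox6a1, chr5:115348959-115349128, minus strand: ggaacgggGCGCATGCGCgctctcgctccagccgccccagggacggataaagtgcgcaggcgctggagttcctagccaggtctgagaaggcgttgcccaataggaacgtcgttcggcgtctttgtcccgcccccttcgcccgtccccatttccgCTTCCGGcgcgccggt
Sdhd, chr9:50603850-50604019, minus strand: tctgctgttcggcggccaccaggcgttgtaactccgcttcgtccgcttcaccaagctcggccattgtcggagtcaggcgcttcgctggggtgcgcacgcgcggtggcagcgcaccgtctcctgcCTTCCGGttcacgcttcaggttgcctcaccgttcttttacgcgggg
Ndufa7, chr17:33824402-33824571, plus strand: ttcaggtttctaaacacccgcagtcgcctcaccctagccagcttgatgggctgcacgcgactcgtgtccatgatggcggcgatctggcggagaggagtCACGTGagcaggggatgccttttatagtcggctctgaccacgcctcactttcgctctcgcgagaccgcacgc
In Atp5k and Cox6a1 the run of 10 capitals holds the NRF1 letters on both strands, offset by 2 bases. The ETS matches of Sdhb and Atp5k lie 6 and 12 bases after the start site and so outside the stretches shown.

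The NRF1 letters were found in 15.2% of the 66 member promoters (10 genes), against 2.80% of all 27025 windows of the same length. For the ETS letters the shares were 22.7% (15 genes) and 9.12%, and for the YY1 letters 12.1% (8 genes) and 2.88%. The E-box was as common among the members (7.58%, 5 genes) as among all windows (7.24%). At least 1 of the 4 motifs was present in 48.5% of member windows and in 19.6% of all windows. By complex, 7 of the 8 genes with the YY1 letters belonged to complex I, which holds 32 of the 66 windows; Ndufs7 was among them, and the other gene was Atp5j2. NRF1 letters were spread over all 5 complexes, in 3 of 32 windows of complex I, 1 of 3 of complex II, 2 of 5 of complex III, 1 of 13 of complex IV and 3 of 13 of complex V. These matches describe the letters of the windows, and no binding was measured.

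Levels are compared between genes per length, in the authors' FPKM values, which scale the fragments of a gene to its length and to the library total. Complex IV had the highest median, 131 FPKM over its 11 genes of at least 5 CPM, followed by complex V (96.5 FPKM, 17 genes), complex II (76.5 FPKM, 4 genes), complex III (67.3 FPKM, 8 genes) and complex I (42.2 FPKM, 36 genes). The same order was found in each of the 4 libraries. Medians of complex I lay between 40.2 and 44.9 FPKM and those of complex IV between 123 and 142 FPKM, so that the distance between these complexes was larger than the spread over libraries.

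Within complexes the levels differed widely. Ndufa6, an accessory subunit of the LYR family, was the most abundant complex I gene, with 131 and 113 FPKM in WT and 132 and 129 FPKM in anti-Act1. Sdhd, a membrane anchor of succinate dehydrogenase, led complex II with 124 and 118 FPKM in WT and 132 and 134 FPKM in anti-Act1. Uqcrh, the hinge protein of complex III, measured 156 and 135 FPKM in WT and 159 and 155 FPKM in anti-Act1. Cox4i1, the largest nuclear subunit of cytochrome c oxidase, was the most abundant member of all, at 446 and 386 FPKM in WT and 433 and 438 FPKM in anti-Act1. Atp5b, the catalytic beta subunit of ATP synthase, measured 241 and 232 FPKM in WT and 236 and 238 FPKM in anti-Act1. For each of these 5 genes WT replicate 2 was the lowest library. In FPKM the groups lay apart for Sdhd alone, while on the CPM scale, which takes up differences in library composition, Ndufa6 and Uqcrh also had both anti-Act1 libraries above both WT libraries.

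**Figure D1:**
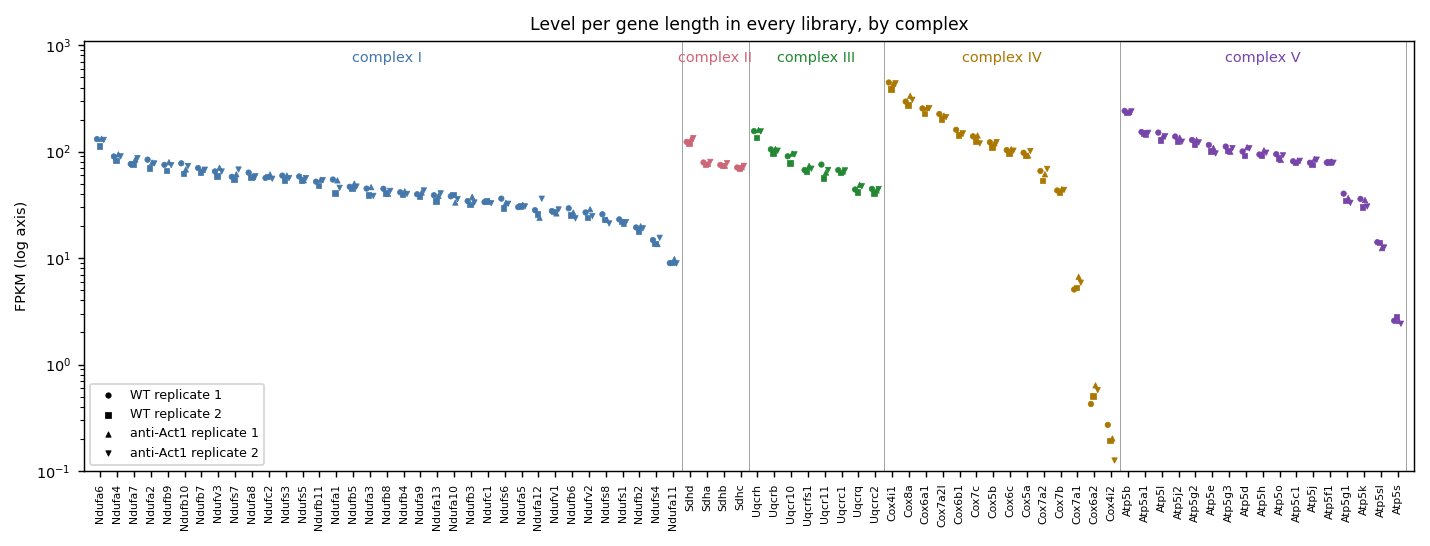
Level of tested respiratory chain genes in FPKM (vertical log axis) in the 4 libraries, ordered within each complex by mean level; each marker is 1 library. Cox4i1 is highest, and the muscle and lung forms Cox7a1, Cox6a2 and Cox4i2 lie far under the other genes of complex IV.

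Several complex IV and V subunits exist as tissue forms encoded by separate genes, and the macrophages used the general forms. Cox4i1 made up 99.94% to 99.97% of the summed FPKM of Cox4i1 and Cox4i2, the latter being a hypoxia-induced form of lung. Cox4i2 was counted 25 and 21 times in WT and 18 and 10 times in anti-Act1, and Cox6a2, a form of heart and skeletal muscle, 18 and 25 times in WT and 26 and 21 times in anti-Act1. Cox6a1 accordingly made up 99.8% of the Cox6a pair in every library. Cox6b2, a testis form, had 16 and 11 counts in WT and 2 and 7 in anti-Act1 and was below the filter of the test; without that filter edgeR gave an unadjusted p = 0.216. Cox7a1, another muscle form, was the exception, with 7.15% and 9.02% of the Cox7a pair in WT and 9.82% and 7.86% in anti-Act1. Its level was 5.07 and 5.28 FPKM in WT and 6.66 and 5.87 FPKM in anti-Act1, with log2 fold change 0.30 ± 0.22 (SE) and edgeR adjusted p = 0.363, while limma on the FPKM values called it higher with a pseudocount of 1 or 0.1 (adjusted p = 0.0492 and 0.0496). Cox7b2, Cox8b and Cox8c had no count in any library, which at 3 counts allows at most 0.0395 to 0.0549 CPM by library. Of the 3 genes that encode the same c-ring subunit of ATP synthase, Atp5g2 gave 45.8% to 48.5% of the summed FPKM, Atp5g3 37.7% to 41.0% and Atp5g1 12.6% to 14.4%. The groups overlapped for the shares of Atp5g1 and Atp5g3, whereas that of Atp5g2 was 45.8% and 45.9% in WT and 48.5% and 46.5% in anti-Act1.

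The comparison sets macrophages labelled anti-Act1 beside macrophages labelled WT, both exposed to carcinoma cells. An effect of the knockdown cannot be told apart here from what goes with Y-linked RNA. For the respiratory chain the differences were small: 7 of 79 tested genes were higher in anti-Act1 and none was lower by edgeR's quasi-likelihood test (adjusted p under 0.05 over all 12494 genes). Over all genes tested, 10.9% were called higher and 9.76% lower, so the 8.86% of members called higher was near the background and the lack of lower calls was below it. At an unadjusted p under 0.05 by edgeR, 19 members were higher and 1 was lower, against 2039 and 1879 of all 12494 genes. DESeq2 called 5 members higher and none lower, against 6.96% and 5.86% of the 15495 genes it fitted. None of the 7 calls held with every library left out. Such fits leave a lone library in a group. For the members as a group they are read by the median log2 fold change, given next.

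The median log2 fold change of the 79 members was 0.056, against -0.0046 over all genes tested; leaving out WT replicate 2 brought it to 0.0073, and leaving out WT replicate 1 to 0.13. Positive values were found for 61 members and negative values for 18, while 49.0% of all genes tested had positive values. The members also lay closer together than genes in general: the interquartile range of their log2 fold changes was 0.12, against 0.25 for all genes tested and 0.18 for the 8172 genes of 10 to 500 CPM. This was not particular to them, as the range of 82 cytosolic ribosomal protein genes was 0.11. Both anti-Act1 libraries lay above both WT libraries in CPM for 29 of 79 members (28.4% of all genes tested), and both lay below for 3 members (28.7% of all), among them Ndufa10 and Atp5sl. Of the 76 members with at least 5 CPM, all had an estimate within 1.25-fold, and 72 had a 95% interval inside 1.25-fold in either direction and all 76 inside 1.5-fold. In bulk RNA, fewer cells of a type and less RNA per cell cannot be told apart.

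**Figure D2:**
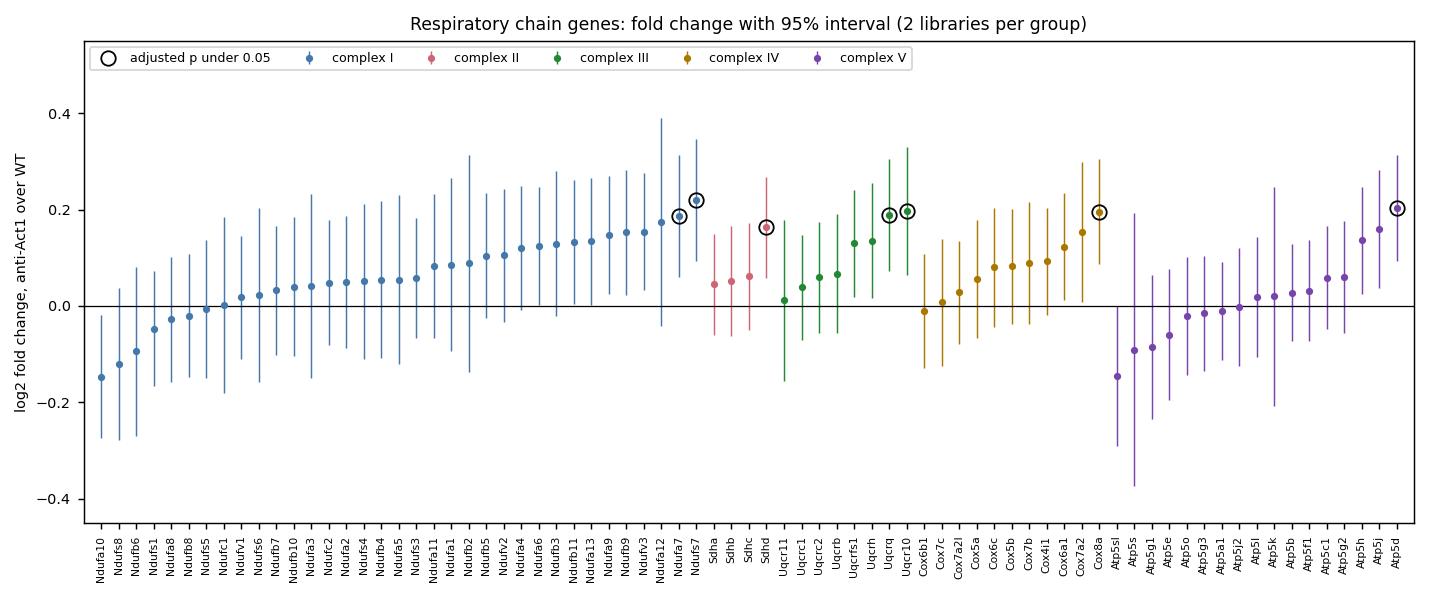
Log2 fold change, anti-Act1 over WT, of members with at least 5 CPM, by complex, with the 95% interval of the edgeR fit (bars); circles mark adjusted p under 0.05. The 7 circled genes lie between 0.16 and 0.22, and complex V is spread about 0 more evenly than the others.

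In complex I, the NADH dehydrogenase, 2 of 36 genes were higher, and the median log2 fold change was 0.055 (0.014 without WT replicate 2, 0.14 without WT replicate 1 and 0.088 without anti-Act1 replicate 2). Ndufs7, a core subunit that carries the last iron-sulfur cluster before ubiquinone, measured 50.8 and 47.8 CPM in WT and 54.1 and 60.7 CPM in anti-Act1. All anti-Act1 values were above the WT values, and the log2 fold change was 0.22 ± 0.06 (SE, n = 2 per group; edgeR adjusted p = 0.0082), the largest among members of at least 5 CPM. Ndufa7, an accessory subunit, measured 40.0 and 39.9 CPM in WT and 44.5 and 46.5 CPM in anti-Act1, with log2 fold change 0.19 ± 0.06 and edgeR adjusted p = 0.0277. The WT libraries were nearly equal for it and both anti-Act1 libraries lay above them. The lowest value in the complex was that of Ndufa10, an accessory subunit related to nucleoside kinases, with 46.1 and 47.8 CPM in WT and 40.7 and 44.3 CPM in anti-Act1. Its groups did not overlap, but its log2 fold change of -0.15 ± 0.06 did not pass (edgeR adjusted p = 0.0979). Ndufs1, the large iron-sulfur protein of the core, had a log2 fold change of -0.047, short of the threshold. Ndufa12 was uneven within the anti-Act1 group, at 13.5 and 20.5 CPM beside 15.7 and 14.4 CPM in WT; its log2 fold change was 0.17, but 0.45 without anti-Act1 replicate 1 (edgeR adjusted p = 4.06e-04) and -0.16 without anti-Act1 replicate 2.

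Complex II, succinate dehydrogenase, is the only one of the 5 made from nuclear genes alone. Sdhd measured 158 and 151 CPM in WT and 171 and 175 CPM in anti-Act1, with no overlap (log2 fold change 0.16 ± 0.05 SE, edgeR adjusted p = 0.0182). Sdhc, the other membrane anchor, measured 80.5 and 79.7 CPM in WT and 81.9 and 85.3 CPM in anti-Act1 (0.061 ± 0.055). For the catalytic flavoprotein Sdha the values were 224 and 214 CPM in WT and 220 and 232 CPM in anti-Act1 (0.045 ± 0.052). The iron-sulfur subunit Sdhb stood at 79.2 and 77.7 CPM in WT and 78.5 and 84.1 CPM in anti-Act1 (0.052 ± 0.056). Only Sdhd passed the test; the groups overlapped for Sdha and Sdhb, and whether Sdhd differed from the other 3 in its change was not tested.

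In complex III, the cytochrome bc1 complex, 2 of 8 genes were higher and all 8 had positive values, with a median of 0.098 (0.020 without WT replicate 2 and 0.19 without WT replicate 1). Uqcrq, a small subunit that binds next to cytochrome b, measured 64.9 and 61.0 CPM in WT and 72.4 and 71.1 CPM in anti-Act1, with log2 fold change 0.19 ± 0.06 and edgeR adjusted p = 0.0139. Uqcr10, another small subunit, measured 42.8 and 37.0 CPM in WT and 45.8 and 45.6 CPM in anti-Act1, with log2 fold change 0.20 ± 0.07 and edgeR adjusted p = 0.0272. For both genes WT replicate 2 was the lowest library, and for Uqcr10 the WT mean of 39.9 ± 4.12 CPM (SD, n = 2) had a far wider spread than the anti-Act1 mean of 45.7 ± 0.161 CPM. Uqcr11 had the lowest value of the complex (0.012 ± 0.083) and the largest split within WT, at 32.7 and 24.5 CPM, with 27.8 and 29.7 CPM in anti-Act1; the log2 difference fell to -0.19 when WT replicate 2 was left out and was 0.23 when WT replicate 1 was. Uqcrfs1, the Rieske iron-sulfur protein, and Uqcrh had log2 fold changes of 0.13 and 0.13 and did not pass (edgeR adjusted p = 0.0902 and 0.104). Cytochrome c1 itself, encoded by Cyc1 and outside the symbol pattern, measured 69.4 and 63.4 CPM in WT and 71.0 and 79.7 CPM in anti-Act1. It was higher (0.18 ± 0.06, edgeR adjusted p = 0.0244), but the call was lost in 10 of 16 alternative ways of processing. Among these were DESeq2 (adjusted p = 0.0738) and edgeR with the length trend removed (adjusted p = 0.175). Leaving out WT replicate 2 (0.12) or anti-Act1 replicate 2 (0.10) also lost it.

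In complex IV, cytochrome c oxidase, 1 of 14 tested genes was higher and 12 had positive values (median 0.085, or 0.0065 without WT replicate 2 and 0.14 without WT replicate 1). Cox8a, a short transmembrane subunit, measured 160 and 148 CPM in WT and 182 and 170 CPM in anti-Act1, with no overlap between the groups and a log2 difference of 0.20 ± 0.05 (adjusted p = 0.0058 by edgeR). Cox4i1 measured 313 and 270 CPM in WT and 307 and 314 CPM in anti-Act1, so that both anti-Act1 values lay close to the higher of the WT libraries (0.093 ± 0.055, edgeR adjusted p = 0.259). The highest and lowest estimates of the complex were those of Cox6a2 (0.40 ± 0.50) and Cox4i2 (-0.46 ± 0.56), both at under 1 CPM and with intervals from well below to well above 0. Cox6b1, a subunit on the cytochrome c side of the enzyme, was at -0.010, and Cox7a2l, a supercomplex assembly factor that the symbol pattern takes in, at 0.028.

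In complex V, ATP synthase, 1 of 17 genes was higher, 9 values were positive and 8 negative, and the median of 0.019 was the lowest of the 5 complexes; it was -0.033 without WT replicate 2, 0.058 without WT replicate 1 and 0.032 without anti-Act1 replicate 1. Atp5d, the delta subunit of the rotating stalk, measured 112 and 102 CPM in WT and 124 and 123 CPM in anti-Act1, and both anti-Act1 libraries lay above WT (log2 fold change 0.20 ± 0.05, edgeR adjusted p = 0.0045). Atp5j, coupling factor 6 of the outer stalk, followed with 49.3 and 47.3 CPM in WT and 54.0 and 53.8 CPM in anti-Act1 and did not pass (0.16 ± 0.06, edgeR adjusted p = 0.0537). Atp5j is given because it stood just outside the threshold, as Ndufa7 stood just inside; without WT replicate 1 it was 0.19 and passed (edgeR adjusted p = 0.0427). The catalytic Atp5b was at 0.028 and Atp5a1, the alpha subunit, at -0.011. The lowest value was that of Atp5sl (-0.14 ± 0.07, edgeR adjusted p = 0.162), with 27.0 and 26.7 CPM in WT and 24.0 and 24.6 CPM in anti-Act1; the gene is now named Dmac2 and takes part in building complex I, so that it is no subunit of ATP synthase. Without Atp5s, Atp5sl and Cox7a2l, which are not core subunits, the calls were 7 higher and none lower of 76, with a median of 0.058.

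Since the label goes together with Y-linked RNA, the members on the X chromosome were read separately. Ndufa1 measured 26.8 and 19.96 CPM in WT and 26.6 and 22.9 CPM in anti-Act1 (log2 fold change 0.086 ± 0.089). Ndufb11 measured 41.9 and 38.6 CPM in WT and 44.0 and 44.2 CPM in anti-Act1 (0.13 ± 0.06). Cox7b measured 42.9 and 40.7 CPM in WT and 44.5 and 44.4 CPM in anti-Act1 (0.089 ± 0.063). None of the 3 passed (edgeR adjusted p = 0.566, 0.141 and 0.358); the groups lay apart for Ndufb11 and Cox7b and overlapped for Ndufa1.

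The members' median log2 difference was larger in size between the 2 single WT libraries than in the fit of anti-Act1 against WT, which averages 2 libraries per group. With anti-Act1 set against WT replicate 2 alone the median was 0.13, and against WT replicate 1 alone it was 0.0073. In WT replicate 2, 70 of 79 members were lower than in WT replicate 1, with a median log2 difference of -0.12, while the median over all genes tested was 0.0013. Between the anti-Act1 libraries the members' median log2 difference was -0.012, with 44 of 79 lower in replicate 2. Set against each gene's mean over the 4 libraries, the members' median log2 deviation was 0.025 in WT replicate 1, -0.088 in WT replicate 2, 0.033 in anti-Act1 replicate 1 and 0.032 in anti-Act1 replicate 2. WT replicate 1 thus lay beside the anti-Act1 libraries, and WT replicate 2 lay apart from the other 3. WT replicate 2 was the lowest of the 4 libraries for 54 members (68.4%), against 26.6% of all genes tested. By complex it was lowest for 23 of 36 genes of complex I, all 4 of complex II, all 8 of complex III, 10 of 14 of complex IV and 9 of 17 of complex V.

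**Figure D3:**
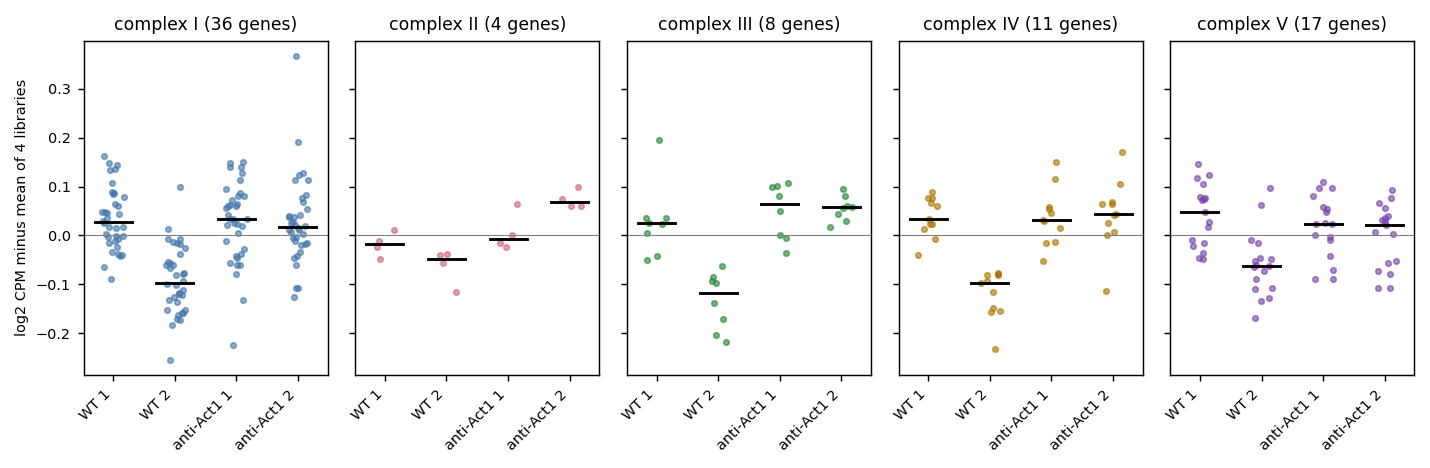
Log2 CPM of each member of at least 5 CPM minus its mean over the 4 libraries, by complex; each point is a gene and the bar is the median. In each complex the median of WT replicate 2 is the lowest. Over the members as a whole WT replicate 1 lies near the anti-Act1 libraries. In complex II anti-Act1 replicate 2 is the highest library for all 4 genes.

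Respiratory chain genes are short by the length used for FPKM, and the comparison was therefore read beside that length. It was recovered from the deposited counts and FPKM values, is called gene length here, and is not the span of a gene in the genome. The members had a median length of 739 bases (292 to 2859), against 2822 bases over all genes tested, and 50 of the 79 were under 1000 bases. Genes of all kinds under 1000 bases had a median log2 fold change of 0.072 and were called higher in 14.0% and lower in 3.38% of 857 cases. Of the genes from 1000 to under 2000 bases 12.97% were called higher and 5.07% lower, of those from 2000 to under 4000 bases 10.7% and 8.92%, and of those of 4000 bases or more 8.89% and 16.4%. Calls thus tilted from higher to lower with length across all genes.

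Calls among the members were no more frequent than among all genes of the same length class. Under 1000 bases, 4 of 50 members (8.00%) were higher and none lower, and their median of 0.059 was below the 0.073 of the other genes of that class. From 1000 to under 2000 bases, 3 of 25 members were higher and none lower, with a median of 0.052 against 0.037 for the other genes. The cytosolic ribosomal proteins, another group of short genes (82 tested, median length 737 bases), had a median log2 fold change of 0.053, with 9 higher and 3 lower. Their median log2 difference between WT replicate 2 and WT replicate 1 was -0.13, and 80 of 82 were lower in WT replicate 2. Over all genes under 1000 bases the median log2 difference between WT replicate 2 and WT replicate 1 was -0.10, and over genes of 4000 bases or more it was 0.043. Between the anti-Act1 libraries these medians were -0.020 and -0.0040. Across the 12491 tested genes with a length, Spearman's rho with length was -0.18 for the fold change and 0.29 for the difference between the WT libraries. For the difference between the anti-Act1 libraries it was -0.0022. Among the 79 members the values were -0.12, 0.39 and 0.31, so the members' differences went with length in both groups. These values describe genes measured in the same 4 libraries, which are not independent replicates.

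Once the length trend of all genes was removed, none of the 79 members was higher and 1 was lower, and their median log2 fold change was 0.0045. At an unadjusted p under 0.05 this fit had 6 members higher and 5 lower. The member then lower was Ndufa10. The trend that was removed had been fitted to these same anti-Act1 over WT fold changes, members included. It amounted to a median of 0.062 on the log2 scale for the members, near their median fold change. A group of short genes that lies near the trend is brought close to 0 by this step, so the lost calls are no separate check. What in the libraries tied the values to length was not tested.

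**Figure D4:**
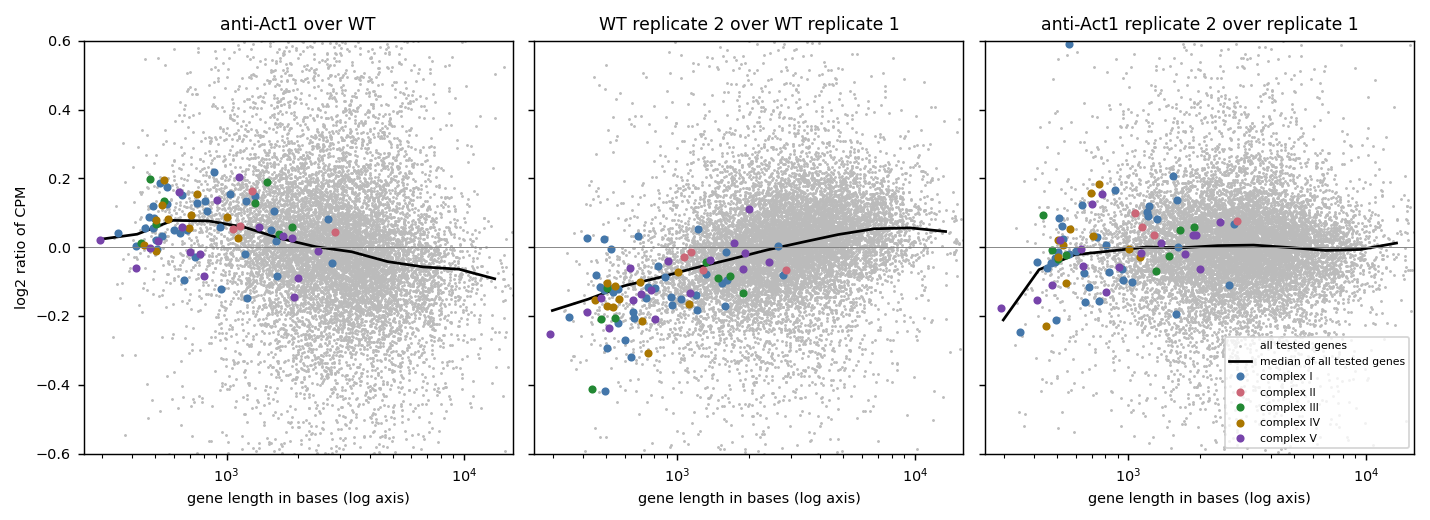
Log2 ratio of CPM against gene length in bases (log axis) for all tested genes (grey), with their running median (line) and the members coloured by complex: anti-Act1 over WT (left), WT replicate 2 over WT replicate 1 (middle) and anti-Act1 replicate 2 over replicate 1 (right). In the left panel the members lie about the line, which is above 0 for short genes, and in the middle panel most lie below 0, where the line is also lowest for short genes.

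Genes of this kind often have processed copies elsewhere in the genome. In GENCODE M21 transcripts, 20 of the 79 tested members had a stretch of at least 150 bases with at least 97% identity in another gene. For 12 of them a matching gene was a pseudogene. The search did not separate copies elsewhere from genes that overlap a member at its own place. Uqcrb and Atp5l had 3 and 4 such genes. Counts of these 20 genes are uncertain to the extent that reads were shared with the matching gene. None of the 7 genes called higher had a match of this kind. The library kit as named does not mark strand, so reads of a gene and of an overlapping gene on the other strand cannot be told apart.

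Genes that build or feed the chain were read from further lists. Of 48 tested assembly factors 3 were higher (6.25%) and 1 was lower (2.08%), against 10.9% and 9.76% of all genes tested. Their median log2 fold change was 0.067, with 31 positive and 17 negative values. By complex the medians ran from -0.030 for the 14 factors of complex I to 0.10 for the 21 of complex IV. With a library left out these 2 medians ran from -0.045 to 0.029 and from 0.066 to 0.19. Higd1a, a small membrane protein that binds complex IV and is known from the response to hypoxia, had 32.6 and 29.8 CPM in WT and 42.3 and 41.1 CPM in anti-Act1 and was higher by more than any subunit called (log2 fold change 0.42 ± 0.07, edgeR adjusted p = 2.49e-06). Ndufaf3, a complex I assembly factor, rose from 11.8 and 11.1 CPM to 13.6 and 16.0 CPM (0.37 ± 0.10, edgeR adjusted p = 0.0037). Sdhaf1, which helps to insert iron-sulfur clusters into Sdhb, had 12.5 and 11.5 CPM in WT and 14.4 and 14.2 CPM in anti-Act1 and passed narrowly (0.25 ± 0.09, edgeR adjusted p = 0.0496). Cox10, which makes heme O for cytochrome c oxidase, fell from 10.97 and 10.5 CPM to 7.98 and 8.90 CPM (-0.35 ± 0.11, edgeR adjusted p = 0.0159). The groups lay apart for each of these 4 genes, which were picked by the test on the same libraries. Of all 48 factors 15 lay apart with anti-Act1 higher and 6 with anti-Act1 lower, against 28.4% and 28.7% of all genes tested. Higd1a was called in all 16 alternatives. Ndufaf3 lost its call in 2 of them, Cox10 in 4, DESeq2 among them (adjusted p = 0.0732), and Sdhaf1 in 10. Those of Sdhaf1 included DESeq2 (adjusted p = 0.156) and edgeR with the length trend removed (adjusted p = 0.208). The call of Ndufaf3 was lost without anti-Act1 replicate 2 (0.25), that of Cox10 without WT replicate 1 (-0.32) or anti-Act1 replicate 1 (-0.27), and that of Sdhaf1 without WT replicate 2 (0.20) or either anti-Act1 replicate (0.24 and 0.26).

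Among 15 tested electron carriers 1 was higher (6.67%, against 10.9% of all genes tested), Etfb, the beta subunit of the electron transfer flavoprotein. It had 30.7 and 30.4 CPM in WT and 35.4 and 34.6 CPM in anti-Act1 (0.20 ± 0.07, edgeR adjusted p = 0.0278). The call was lost in 10 of 16 alternatives, among them DESeq2 (adjusted p = 0.0773) and edgeR with the length trend removed (adjusted p = 0.235). It was also lost whichever library was left out (0.18 to 0.21). None of 15 tested regulators of mitochondrial biogenesis passed the edgeR test. Nrf1 and Gabpa, whose motifs stand in the promoters above, had log2 fold changes of 0.033 ± 0.071 and 0.0062 ± 0.062, and Yy1 had 0.14 ± 0.06 (edgeR adjusted p = 0.0798, and 0.0494 without WT replicate 2). Ppargc1a, the coactivator best known for driving the chain's genes, was barely detected, at 0.387 and 0.435 CPM in WT and 0.680 and 0.696 CPM in anti-Act1.

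Of 20 other mitochondrial proteins 4 were higher (20%) and 2 lower (10%), against 10.9% and 9.76% of all genes tested. Their median log2 fold change was 0.0034, with 11 positive and 9 negative values. Hspa9, the matrix chaperone that pulls imported proteins inward, had 249 and 245 CPM in WT and 309 and 320 CPM in anti-Act1 (0.35 ± 0.05, edgeR adjusted p = 4.86e-07). Ucp2, an inner membrane carrier abundant in macrophages, had 488 and 504 CPM in WT and 409 and 459 CPM in anti-Act1 (-0.19 ± 0.05, edgeR adjusted p = 0.0059), a call lost without anti-Act1 replicate 1 (-0.11). Timm23, Tomm20 and Vdac1 were the other higher genes and Slc25a3, the phosphate carrier, the other lower one. The values of Higd1a, Hspa9 and Vdac1, with log2 fold changes of 0.42, 0.35 and 0.33, were above those of all 7 subunit genes called.

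**Figure D5:**
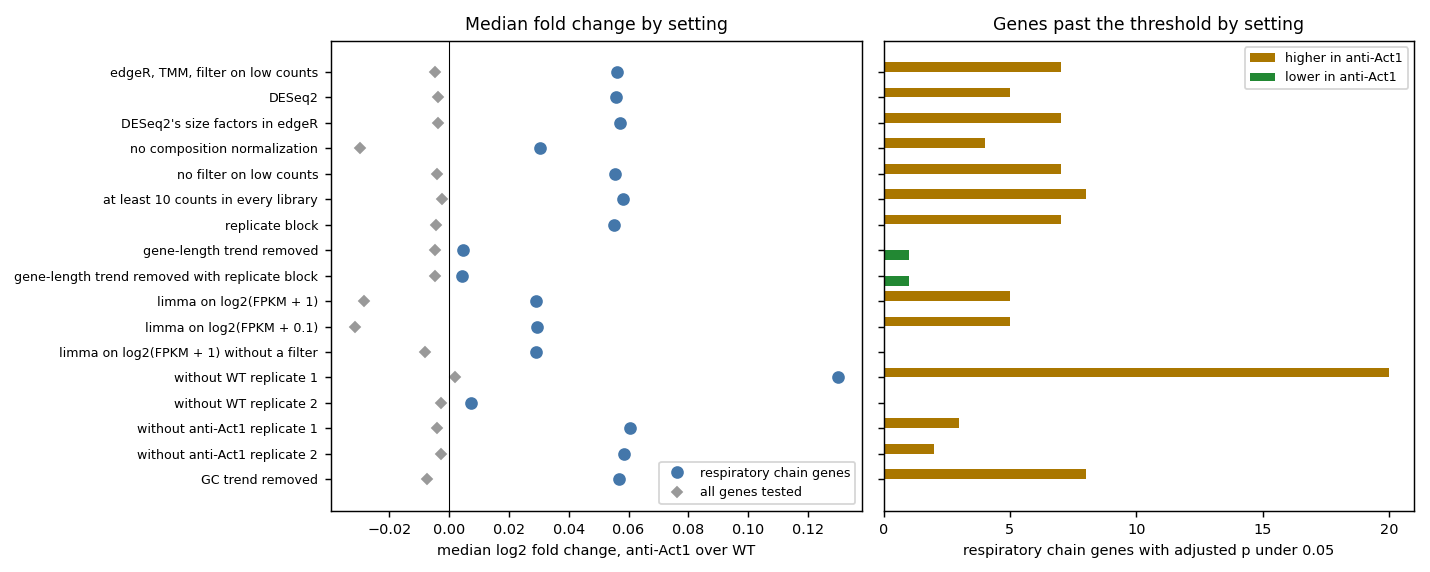
Left, median log2 fold change of the members (circles) and of all genes tested (diamonds) under each way of processing; right, number of members called higher or lower. The members' median stays above that of all genes in each setting, but nears 0 without WT replicate 2 and with the length trend removed, where no member is called higher.

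Across these settings the 7 calls differed in how often they held. Atp5d and Ndufs7 were called in 11 of 16 alternatives, Uqcrq in 10, Cox8a in 9, Ndufa7 and Sdhd in 7 and Uqcr10 in 6. All 7 log2 fold changes stayed positive throughout, from 0.093 for Uqcr10 at the lowest to 0.30 for Ndufs7 at the highest.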

How the data were processed

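RNA was extracted from bone marrow-derived macrophages after coculture, and 4 libraries were sequenced as read pairs. The authors removed low-quality reads and aligned the rest with TopHat; the submitters' processing notes also name Bowtie 0.12.2, HTSeq 0.6.1 and the builds mm8 and mm10, without roles, and the annotation is not given in the sources used here. The deposited files hold raw counts per gene and FPKM per gene, the latter made by the authors from the same counts, gene length and column total.

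Counts were tested with edgeR 4.0.16 (TMM scaling, filterByExpr, quasi-likelihood test, R 4.3.3), 2 libraries against 2, over all genes, with Benjamini-Hochberg adjustment and a threshold of 0.05. CPM values are TMM-scaled, and intervals are 95% intervals of the fit. An exact permutation test of 2 against 2 cannot go below p = 0.333 and was not used. Floors and intervals at 0 counts cover counting error only. The members and lists were chosen with earlier results of these data known. Named were the members past the threshold, the highest and lowest change and the most abundant gene per complex, tissue forms, X-linked members, all of complex II, and from the pathway lists the largest rise and fall past the threshold; Ndufs1, Ndufa12, Uqcrfs1, Atp5j, Atp5a1, Cox7a2l, Traf3ip2, the cell markers, the regulators and remaining mitochondrial genes were added after their values were seen. Alternatives were DESeq2 1.42.0, other scalings and filters, a replicate block, removal of a length trend, limma 3.58.1 on log2(FPKM + 1) or log2(FPKM + 0.1), each library left out, and removal of a GC trend, chosen after seeing the data. The length trend was a loess fit (span 0.3) of the anti-Act1 over WT log2 fold changes on log length, over all genes tested with a length, members included. The code was tested on simulated data. 1 result is not reported here. All 83 members matched a RefSeq gene by symbol or synonym.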

Additional observations from a re-analysis of the deposited data

How the results depend on the processing

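Of 16 alternatives, the number of members called higher (7) went to 4 without composition normalization, to 0 with the gene-length trend removed, with or without the replicate block, and to 0 with limma on unfiltered log2(FPKM + 1); with a library left out it ran from 0 (WT replicate 2) to 20 (WT replicate 1). The number called lower (0) became 1 with the gene-length trend removed, with or without the replicate block. The members' median log2 fold change ran from 0.0073 to 0.13 with the same libraries left out. With the replicate block alone the calls were 7 higher and 0 lower with a median of 0.055; replicate numbers did not pair the libraries (correlation of the differences between replicates -0.030 over 12494 genes). The cause of these shifts was not tested.

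Log2 fold changes that changed sign belonged to genes that were not called. With the length trend removed, without and with the replicate block, Sdhb came to -0.018 and -0.019, Sdhc to -0.0037 and -0.0045, Atp5g2 to -0.019 and -0.017, Cox7a2l to -0.039 and -0.037 and Uqcr11 to -0.033 and -0.020. With the GC trend removed, Atp5g2 came to -0.0096 and Uqcr11 to -0.035. Uqcr11 and Gabpa were -0.013 and -0.019 without composition normalization; Uqcr11 was -0.0019, -0.0017 and -0.0019 and Gabpa -0.016, -0.017 and -0.016 by limma with pseudocounts of 1 and 0.1 and with 1 unfiltered. With a library left out, the values ran from -0.0037 to 0.058 for Atp5b, -0.19 to 0.023 for Atp5g1, -0.017 to 0.14 for Atp5g2, -0.083 to 0.054 for Atp5g3, -0.012 to 0.20 for Cox4i1, -0.094 to 0.076 for Cox6b1, -0.12 to 0.31 for Ndufa1, -0.19 to 0.23 for Uqcr11, -0.046 to 0.028 for Atp5a1, -0.052 to 0.11 for Cox7a2l, -0.069 to 0.085 for Gabpa, -0.16 to 0.45 for Ndufa12 and -0.00078 to 0.067 for Nrf1. With the replicate block the calls of Cd14 and Sdhaf1 were lost (adjusted p = 0.0568 and 0.0509). Fits with a lone library in a group assume that it varies like the others. Depth limits Cox4i2, Cox6a2 and Cox6b2, with counts from 2 to 26.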
